A study of Homo sapiens with 14 samples.

Results

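The folate cycle carries single-carbon units for nucleotide synthesis, and 9 of its genes were followed here: TYMS, SLC19A1, FPGS, GGH, MTHFD1, MTHFD2, MTHFD1L, SHMT1 and SHMT2. They were chosen by name, for their place in the cycle or in the handling of methotrexate, and each was read from probe sets annotated with that gene alone. The choice, like that of the gene lists below, was made with earlier results of these data known. Shares of all genes beside the counts are thus given for scale only. All 9 were measured, among 19775 genes, by 23 of the 42892 probe sets with a gene symbol. The arrays came from a study of phosphoinositide 3-kinase (PI3K) inhibition in 7 established human T-cell acute lymphoblastic leukemia (T-ALL) lines: P12-ICHIKAWA, TALL-1, CCRF-CEM, ALL-SIL, Molt-4, Jurkat and HPB-ALL. Each line was exposed for 6 h to the PI3K inhibitor AS605240, at the concentration that was the IC50 of that line, or to vehicle. The study thus had 7 AS605240 arrays and 7 vehicle arrays, with no repeat of either treatment within a line. The AS605240 concentration differed between lines and was lowest in CCRF-CEM. The labels name no other agent, nor what the vehicle was.

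In the folate cycle, serine hydroxymethyltransferases (SHMT1 in the cytosol, SHMT2 in mitochondria) move a carbon from serine onto tetrahydrofolate and release glycine. MTHFD1 interconverts the resulting folate forms in the cytosol, while MTHFD2 and MTHFD1L do so in mitochondria, where the pathway ends in formate. Thymidylate synthase, encoded by TYMS, spends a folate-borne carbon to make dTMP for DNA. Methotrexate is an antifolate used against acute lymphoblastic leukemia. It enters cells mainly through the reduced folate carrier SLC19A1, is held inside them as polyglutamates made by folylpolyglutamate synthetase (FPGS), and is freed from these by gamma-glutamyl hydrolase (GGH).

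Values were Affymetrix signals, and a level below is log2(signal + 16), so that changes of weak probe sets are understated. A gene was represented by its brightest probe set. The change with AS605240 was the level with AS605240 minus that with vehicle in the same line, and its standard error (SE) and adjusted p came from limma, in a fit blocked by cell line, with Benjamini-Hochberg adjustment over 19775 genes. Since each line gave 1 pair of arrays, the spread is that between lines, and array error within a line was not measured. With bulk RNA, fewer cells and less RNA per cell cannot be told apart.

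Before the results, some facts of the arrays bear on them. The median level of an array lay between 5.59 and 5.83, and the median change of all genes was 0.013. The T-cell label held for the levels of its markers: all 8 were measured, 7 had a signal over 50 in all 14 arrays, the exception being CD2, and their summed signal ran from 11273 to 18896 with vehicle and from 10136 to 17927 with AS605240. Of the 8 T-cell markers, CD3G fell (log2 change -0.26, limma adjusted p = 0.00682), and their part in the results below was not tested. The 4 B-cell markers measured of 5 summed to between 37.8 and 374 with vehicle and between 48.9 and 434 with AS605240, with CD79B lower and BLNK higher, and CD79A had a signal over 50 in 12 arrays. The 5 myeloid markers summed to between 143 and 256 with vehicle and between 148 and 226 with AS605240, none of them passed, and LYZ was over 50 in all 14 arrays. The vehicle arrays of P12-ICHIKAWA and TALL-1 correlated at r = 0.994 over all genes, against 0.908 to 0.953 in the other 20 pairs of lines, so the fits were repeated with both counted as 1 line.

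With AS605240, SLC19A1 and FPGS, the genes of methotrexate entry and polyglutamation, fell, and so did MTHFD1. SLC19A1 was 1.33-fold lower, FPGS 1.26-fold lower and MTHFD1 1.13-fold lower, so that 3 of the 9 genes passed in the lower direction and 0 in the higher. At an unadjusted p under 0.05 the counts were also 3 and 0. Of all genes, 7.03% were called lower and 11.8% higher. Without the cell line as a block, none of the 3 passed (limma adjusted p = 0.801 for SLC19A1 and 0.9999 for the others). That fit leaves the differences between lines in the error. SLC25A32, described below, did not pass in it either (limma adjusted p = 0.657). None of the 9 changes, each from a probe set naming that gene alone, reached 1.5-fold. The median of the 9 changes was -0.053, against 0.013 for all genes, and 8 of the 9 mean changes were below 0, as were 9004 of all 19775. Of those 8, SHMT1 and MTHFD1L came from probe sets that never reached a signal of 50. TYMS, the target of other antifolates, had a mean change of 0.06.

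**Figure D1:**
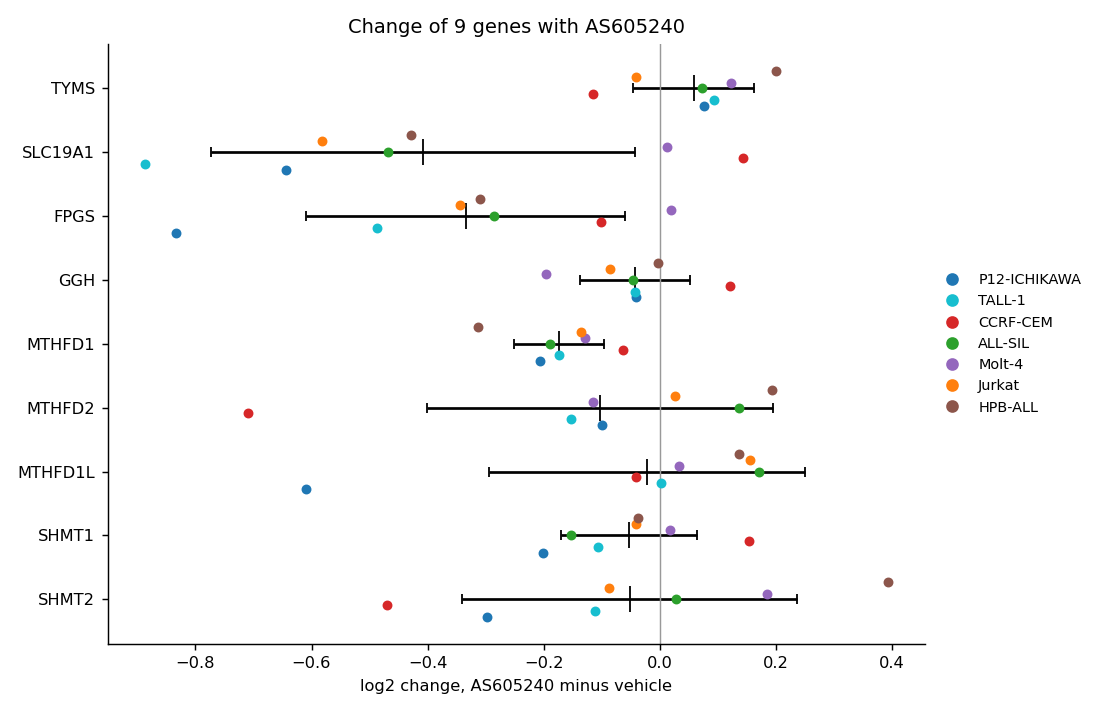
Change with AS605240 (log2 level with AS605240 minus vehicle, x axis) of the 9 genes (y axis). Each point is 1 cell line, the vertical tick is the mean and the horizontal bar is ± 1 SD over the 7 lines. All points of MTHFD1 lie left of 0, as do 6 of 7 points of FPGS and 5 of 7 of SLC19A1. The CCRF-CEM point is far to the left for MTHFD2, and is the leftmost for SHMT2 without standing far apart.

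Because SLC19A1, FPGS and MTHFD1 were called together, the region around an annotated start of each is shown. Each sequence holds 250 bases before and 50 bases after the start, on the strand of the gene, from RefSeq on GRCh38.p14. Capitals mark every match on either strand to 3 motifs: the E-box CACGTG, the GC box GGGCGG and the CCAAT box CCAAT. Neighbouring GC boxes may share a base.
MTHFD1, chr14:64388103-64388402, plus strand: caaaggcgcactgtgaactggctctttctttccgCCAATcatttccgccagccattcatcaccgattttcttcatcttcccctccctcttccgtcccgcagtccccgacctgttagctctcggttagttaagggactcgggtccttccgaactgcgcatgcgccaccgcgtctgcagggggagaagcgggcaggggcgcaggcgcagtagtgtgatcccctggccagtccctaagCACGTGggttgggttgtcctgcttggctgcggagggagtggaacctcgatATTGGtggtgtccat
FPGS, chr9:127802608-127802907, plus strand: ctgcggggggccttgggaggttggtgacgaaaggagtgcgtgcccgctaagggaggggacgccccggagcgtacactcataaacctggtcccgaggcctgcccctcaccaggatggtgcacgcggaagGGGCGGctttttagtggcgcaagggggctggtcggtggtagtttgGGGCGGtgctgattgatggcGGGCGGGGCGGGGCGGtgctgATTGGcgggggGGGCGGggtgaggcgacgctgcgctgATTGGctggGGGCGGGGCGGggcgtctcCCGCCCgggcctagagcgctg
SLC19A1, chr21:45542391-45542690, minus strand: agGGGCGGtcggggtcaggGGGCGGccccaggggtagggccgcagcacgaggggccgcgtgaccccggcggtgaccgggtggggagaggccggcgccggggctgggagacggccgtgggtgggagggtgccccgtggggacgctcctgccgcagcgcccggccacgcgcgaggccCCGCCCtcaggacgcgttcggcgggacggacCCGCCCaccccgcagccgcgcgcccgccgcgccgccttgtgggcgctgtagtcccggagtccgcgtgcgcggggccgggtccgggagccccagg
The MTHFD1 window held 1 E-box, at position -15 from the start, 2 CCAAT boxes and 0 GC boxes. The FPGS window held 9 GC boxes, 2 CCAAT boxes and 0 E-boxes, as did an overlapping window at 127802632 to 127802931, while the remaining annotated FPGS window, at 127802931 to 127803230, held 1 E-box, at position -76, and 1 GC box. The SLC19A1 window held 4 GC boxes and neither of the other motifs, and was shown because it had the most matches of 4 annotated start windows. The SLC19A1 window at 45541797 to 45542096 held 1 E-box and the one at 45534707 to 45535006 held 1 GC box, while the outermost, at 45562976 to 45563275, held none. Of 35116 such windows of all genes, 7.26% held an E-box, 45.0% a GC box and 34.6% a CCAAT box. Matches were not limited to the called genes. The MTHFD1L window at 150866083 to 150866382 held 1 E-box, 2 GC boxes and 1 CCAAT box. The SHMT1 window at 18363501 to 18363800 held 2 GC boxes and 2 CCAAT boxes. The MTHFD2 window at 74198365 to 74198664 held 2 CCAAT boxes, and the TYMS window at 657403 to 657702 held none. Start windows were kept for 7 of the 9 genes, without GGH and SHMT2. GGH was left out by a filter on chromosome, so its absence does not mean that it has no annotated start. SHMT2 had no usable window in the reference used. These matches describe the letters of the windows and no binding was measured.

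SLC19A1, the carrier by which methotrexate enters, had a vehicle signal between 161 and 282 with a median of 228, and a signal with AS605240 between 100 and 230 with a median of 183. The lowest value with AS605240 came from TALL-1 (100) and the next from P12-ICHIKAWA (103), and the groups overlapped. Within lines the log2 change was -0.89 in TALL-1, -0.64 in P12-ICHIKAWA, -0.58 in Jurkat, -0.47 in ALL-SIL and -0.43 in HPB-ALL. Molt-4 (0.01) and CCRF-CEM (0.14) did not move down. The mean change was -0.41 (SE 0.11, limma adjusted p = 0.0145, lower in 5 of 7 lines). The call held when any of the 7 lines was left out, with a change between -0.50 and -0.33, and with P12-ICHIKAWA and TALL-1 as 1 line (-0.35, adjusted p = 0.0402). It was lost at an offset of 4 (limma adjusted p = 0.0582) and with the mean of all its probe sets (-0.14, adjusted p = 0.0548).

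SLC19A1 was the best covered of the 9 genes, with 7 probe sets. The brightest, 211576_s_at, used above, and 2 weaker ones, 209777_s_at and 209776_s_at, fell. The change was -0.26 for 209777_s_at (limma adjusted p = 0.0085 over 42892 probe sets) and -0.28 for 209776_s_at (adjusted p = 0.0197), and both were lower in 7 of 7 lines, CCRF-CEM and Molt-4 included. The other 4 had mean signals between 2.12 and 37.9 and changes between -0.08 and 0.04. Of all probe sets, 6.03% were called lower and 10.4% higher, and of the 23 probe sets of the 9 genes 5 were lower and 0 higher: 3 of SLC19A1 and 1 each of FPGS and MTHFD1.

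FPGS, which adds glutamates to folates and to methotrexate, had a vehicle signal between 169 and 391.6 with a median of 298, and with AS605240 between 98.005 and 357 with a median of 273. P12-ICHIKAWA and TALL-1 were the lowest lines with both treatments, and the groups overlapped. The log2 change was -0.83 in P12-ICHIKAWA, -0.49 in TALL-1, -0.34 in Jurkat, -0.31 in HPB-ALL, -0.28 in ALL-SIL and -0.10 in CCRF-CEM. Molt-4 stood at 0.02. The mean change was -0.33 (SE 0.09, limma adjusted p = 0.0143, lower in 6 of 7 lines), and it stayed past the threshold when each line was left out, between -0.39 and -0.25, and with P12-ICHIKAWA and TALL-1 as 1 line (-0.28, adjusted p = 0.0324). At an offset of 4 the adjusted p was 0.0559. A single probe set, 202945_at, measured FPGS.

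In the brightest probe sets, P12-ICHIKAWA and TALL-1 had the lowest changes of both SLC19A1 and FPGS, and Molt-4 and CCRF-CEM the highest. Over the 7 lines the Pearson correlation of these changes was 0.773. It was 0.907 over 6 with P12-ICHIKAWA and TALL-1 as 1 line and 0.758 without CCRF-CEM. The weaker SLC19A1 probe sets ordered the lines otherwise. In 209777_s_at HPB-ALL (-0.43) and Jurkat (-0.39) fell most and TALL-1 (-0.08) least. In 209776_s_at P12-ICHIKAWA (-0.62) fell most and HPB-ALL (-0.03) least. The points of each line share the same pair of arrays, so this is a description of these arrays.

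GGH, the hydrolase that takes glutamates off, did not pass (mean change -0.04, limma adjusted p = 0.695). Its changes ran from -0.20 in Molt-4 to 0.12 in CCRF-CEM. The FPGS change minus the GGH change was -0.29 ± 0.30 (SD, n = 7) and below 0 in 6 of 7 lines. In an exact two-sided sign-flip test, whose smallest p with 7 lines is 0.0156, this gave p = 0.0313, and 0.125 after adjustment over 4 pairs of genes. The difference between FPGS and GGH thus missed the threshold. In ALL-SIL GGH was near the floor, so its change there was not measurable, and without that line the difference was -0.30 (exact sign-flip, adjusted p = 0.25).

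GGH stood apart among the 9 genes for its difference between lines. In ALL-SIL its signal was 2.998 with vehicle and 2.40 with AS605240, close to the floor of the array. In the other 6 lines it was between 304 (HPB-ALL) and 620 (CCRF-CEM) with vehicle and between 303 (HPB-ALL) and 676 (CCRF-CEM) with AS605240. The level of the lowest other line, HPB-ALL, was 4.08 above that of ALL-SIL with vehicle and 4.12 above it with AS605240, which is at least 16.9-fold and 17.4-fold, lower bounds because the added 16 sets most of the ALL-SIL value. A single probe set, 203560_at, measured GGH. GGH thus read near the floor on both arrays of ALL-SIL and well above it on the 12 arrays of the other lines. Across the array, 14 of 19775 genes had a level under 5 in ALL-SIL and over 8 in every other line with both treatments. RB1, a tumor suppressor that restrains cell cycle entry, and PRNP, the prion protein gene, were among these 14.

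**Figure D2:**
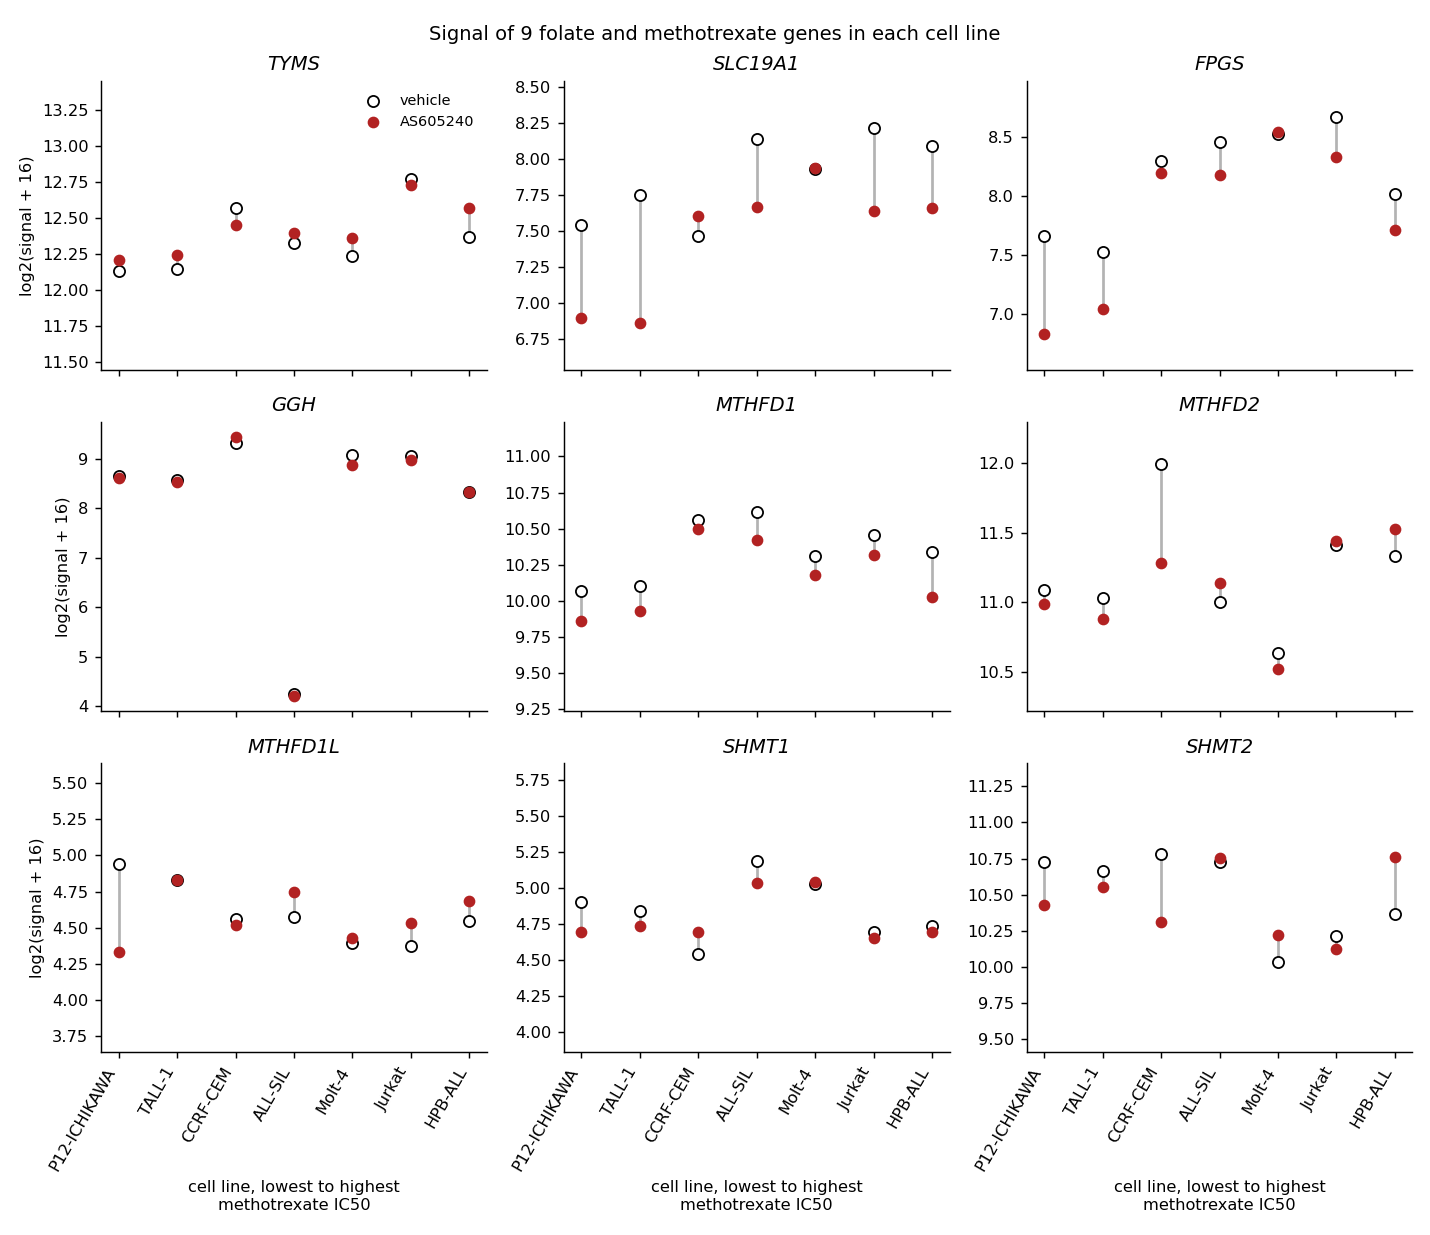
Level, log2(signal + 16), of each of the 9 genes (y axis, scaled separately for each gene) in the 7 cell lines (x axis), ordered from the lowest to the highest methotrexate IC50. Open circles are vehicle, filled circles AS605240, 1 array each, and the grey line joins both arrays of a line. GGH is near 4 in ALL-SIL and over 8 in all other lines, and the AS605240 point of SLC19A1 lies well below the vehicle point in 5 lines.

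MTHFD1, the trifunctional cytosolic enzyme, had a vehicle signal between 1056 and 1552 with a median of 1278, and with AS605240 between 913 and 1430 with a median of 1145. It was lower with AS605240 in 7 of 7 lines, by the most in HPB-ALL (-0.31) and by the least in CCRF-CEM (-0.06), although the groups overlapped. The mean change was -0.17 (SE 0.06, limma adjusted p = 0.0409). The call depended on the lines. It was kept without CCRF-CEM (adjusted p = 0.0447) and lost without each of P12-ICHIKAWA (0.0867), TALL-1 (0.0861), ALL-SIL (0.0814), Molt-4 (0.0614), Jurkat (0.0695) and HPB-ALL (0.0986). It was also lost at an offset of 4 (0.0882), after quantile normalization (0.0922), with both its probe sets averaged (-0.07, adjusted p = 0.326) and with P12-ICHIKAWA and TALL-1 as 1 line (0.0711). The other probe set of MTHFD1, 239846_at, had a mean signal of 5.40 and a change of 0.03.

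MTHFD2, the mitochondrial counterpart, had a vehicle signal between 1576 (Molt-4) and 4059 (CCRF-CEM) with a median of 2159, and with AS605240 between 1453 and 2940 with a median of 2237. The mean change did not pass (-0.10, SE 0.09, limma adjusted p = 0.52), but CCRF-CEM stood apart. There the signal went from 4059 to 2477, a log2 change of -0.71, while the other 6 lines lay between -0.15 and 0.19. The weaker probe set of MTHFD2, 234976_x_at, gave -0.81 in CCRF-CEM and -0.32 to 0.22 in the other lines. Without CCRF-CEM the mean change of MTHFD2 was -0.0019.

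SHMT2, which feeds mitochondria with carbons from serine, also had its lowest change in CCRF-CEM. Its vehicle signal ran from 1033 (Molt-4) to 1745 (CCRF-CEM) with a median of 1605, and with AS605240 from 1100 to 1718 with a median of 1359. The changes went both ways, from -0.47 in CCRF-CEM and -0.30 in P12-ICHIKAWA to 0.18 in Molt-4 and 0.39 in HPB-ALL, so that the mean was -0.05 (limma adjusted p = 0.771). The 3 probe sets of SHMT2 gave -0.47, -0.45 and -0.52 in CCRF-CEM and 0.39, 0.26 and 0.48 in HPB-ALL. Over the 7 lines the changes of MTHFD2 and SHMT2 correlated at r = 0.774, and at 0.589 without CCRF-CEM, a description over arrays that both genes share.

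The enzymes that make serine showed the same line at their lowest. PHGDH, the first enzyme of serine synthesis, changed by -0.62 in CCRF-CEM, against -0.35 to 0.23 in the other 6 lines. PSAT1, the aminotransferase that follows, changed by -1.25 in CCRF-CEM, against -0.72 to 0.31, although in ALL-SIL and HPB-ALL its signals were under 5 with both treatments and left no room to fall. PSPH, the phosphatase that completes serine, changed by -0.99, against -0.15 to 0.32. For MTHFD2, SHMT2, PHGDH, PSAT1 and PSPH alike CCRF-CEM was the lowest of the 7 lines. This was not particular to them. CCRF-CEM was also the lowest for SLC1A5 (-1.19), CBS (-0.90), SLC6A9 (-0.79), SLC1A4 (-0.53) and CTH (-0.23). The same held for TYMS (-0.12) and the T-cell markers CD2 (-0.47) and CD3D (-0.33), while for SLC19A1 (0.14) and GGH (0.12) it was the highest. The share of all genes with their lowest change in CCRF-CEM was not counted. CCRF-CEM had 1 array per treatment and the lowest AS605240 concentration, and the part of either in these values was not tested.

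TYMS, which makes dTMP, had a vehicle signal between 4471 and 6966 with a median of 5128, and with AS605240 between 4713 and 6772 with a median of 5390. The AS605240 level was above the vehicle level in 5 of 7 lines, by 0.20 at most (HPB-ALL), and below it in CCRF-CEM (-0.12) and Jurkat (-0.04). The mean change of 0.06 (SE 0.06) did not pass (limma adjusted p = 0.577). The second probe set, 1554696_s_at, gave 0.09 and the third, 217684_at, 0.05. P12-ICHIKAWA and TALL-1 were the lowest lines with both treatments and Jurkat the highest, while HPB-ALL and CCRF-CEM changed places.

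The probe sets naming SHMT1 or MTHFD1L alone were dim. No array reached a signal of 50 in either of those used. Signals of SHMT1 lay between 7.27 and 20.3 with vehicle and between 9.18 and 17.0 with AS605240. Those of MTHFD1L lay between 4.76 and 14.7 with vehicle and between 4.14 and 12.4 with AS605240. Their mean changes of -0.05 (SHMT1, limma adjusted p = 0.629) and -0.02 (MTHFD1L, adjusted p = 0.908) say little at such signals. The change of -0.61 for MTHFD1L in P12-ICHIKAWA came from a step from 14.7 to 4.14.

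Brighter probe sets exist that name one of these genes along with others, and they cannot be assigned to a gene. Probe sets 225520_at and 231094_s_at each name MTHFD1L and 2 uncharacterized loci, and both fell in 7 of 7 lines. The former had a mean signal of 507 and changed by -0.58, from -1.09 in P12-ICHIKAWA to -0.25 in HPB-ALL (limma adjusted p = 3.94e-04 over all probe sets). The latter had a mean signal of 99.7 and changed by -0.72, from -1.41 to -0.38 in the same 2 lines (adjusted p = 2.90e-04). Probe sets 209980_s_at and 224954_at name SHMT1 and a microRNA gene, with mean signals of 279 and 420. The former changed by -0.02 (adjusted p = 0.895) and the latter by -0.16 (adjusted p = 0.101), though the latter was lower in 7 of 7 lines.

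**Figure D3:**
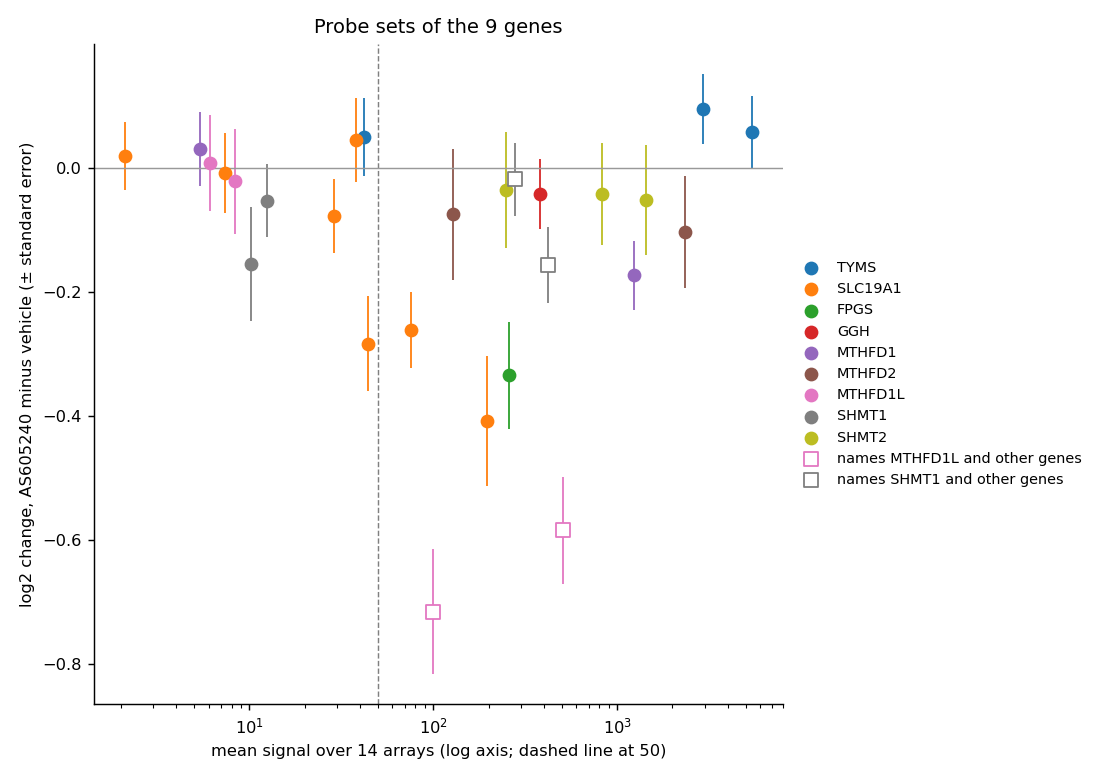
Change with AS605240 (log2, y axis, ± standard error) of every probe set of the 9 genes against its mean signal over the 14 arrays (x axis, log scale). Filled circles are the 23 probe sets naming 1 gene, open squares the 4 that name MTHFD1L or SHMT1 with other genes, and the dashed line is a signal of 50. The 2 squares near -0.6 and -0.7 are 225520_at and 231094_s_at, while the circles of MTHFD1L lie left of 10.

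Compartments were set against each other within lines. The MTHFD2 change minus the MTHFD1 change was 0.07 ± 0.36 (SD, n = 7, exact two-sided sign-flip p = 0.625), above 0 in 6 of 7 lines with CCRF-CEM at -0.65. The SHMT2 change minus the SHMT1 change was 0.00084 ± 0.33 (SD, n = 7, exact p = 1), between -0.62 and 0.43. The MTHFD1L change minus the MTHFD1 change was 0.15 ± 0.28 (SD, n = 7, exact p = 0.203). The last 2 of these rest on the dim probe sets of SHMT1 and MTHFD1L. With FPGS minus GGH, 0 of these 4 differences passed after adjustment, and 1 had an unadjusted p under 0.05.

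Levels over both treatments differed between lines for 8 of the 9 genes by the F test of the cell line terms in the same limma fit, against 66.9% of all genes. With 1 vehicle array per line, the vehicle level alone could not be tested. MTHFD1L was the exception (adjusted p = 0.292). The smallest adjusted p was that of GGH (3.49e-13), followed by FPGS (9.96e-06), MTHFD1 (6.42e-04) and MTHFD2 (9.99e-04). When the probe sets of a gene were averaged, the count was 5 of 9. Averaged over both treatments, P12-ICHIKAWA and TALL-1 were the lowest lines for TYMS, SLC19A1, FPGS and MTHFD1, and Molt-4 was the lowest for MTHFD2 and SHMT2. CCRF-CEM was the highest for GGH, MTHFD1 and MTHFD2. Neighbours in these orders were often inseparable: of the 6 steps between neighbouring lines, 5 exceeded the residual SD of the fit for GGH, 4 for MTHFD1, 3 for TYMS, 2 each for FPGS and MTHFD2, and 1 each for SLC19A1, SHMT1 and SHMT2.

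The vehicle levels were then set beside the methotrexate IC50 of the same lines, a measurement of the study used here only for its values per line and not printed. These IC50 values came from the longer of the study's methotrexate assays. In the shorter assay the paper describes HPB-ALL, P12-ICHIKAWA and ALL-SIL as resistant. P12-ICHIKAWA, lowest by the IC50 used here, was thus among the resistant lines there. From the lowest to the highest IC50 the order was P12-ICHIKAWA, TALL-1, CCRF-CEM, ALL-SIL, Molt-4, Jurkat and HPB-ALL. In that order the vehicle level of SLC19A1 was 7.54, 7.75, 7.46, 8.14, 7.93, 8.22 and 8.09. In this brightest probe set, the 4 lines with the higher IC50 values all lay above the 3 with the lower ones. For FPGS the levels were 7.67, 7.53, 8.30, 8.46, 8.52, 8.67 and 8.02, low in the first lines but also in HPB-ALL, the last.

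No relation passed for any of the 9 genes in exact permutation tests after adjustment, while at an unadjusted p under 0.05 Pearson's r counted 2 (SLC19A1 and MTHFD1L) and Spearman's rho 1 (MTHFD1L). For SLC19A1 Pearson's r was 0.775 (n = 7, exact permutation p = 0.0446, 0.201 after adjustment over 9 genes) and Spearman's rho 0.714 (exact permutation p = 0.0881, adjusted 0.329). With the mean of all SLC19A1 probe sets rho was only 0.357. Without HPB-ALL and P12-ICHIKAWA, the lines farthest from the median IC50, r of the brightest probe set was 0.720. For FPGS r was 0.532 (n = 7, exact permutation p = 0.219, adjusted 0.395) and rho 0.607 (exact p = 0.167, adjusted 0.36), with r at 0.682 without those lines. For TYMS r was 0.569 (n = 7, exact permutation p = 0.183, adjusted 0.395) and rho 0.679 (exact p = 0.11, adjusted 0.329), with r at 0.635 without them.

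The enzymes gave both signs. MTHFD1L had r = -0.780 (n = 7, exact permutation p = 0.0345, adjusted 0.201) and rho = -0.857 (exact p = 0.0238, adjusted 0.214), from signals that never reached 50. With the AS605240 arrays in place of vehicle its rho was 0.179. SHMT2 had r = -0.669 (n = 7, exact permutation p = 0.111, adjusted 0.334) and rho = -0.571 (exact p = 0.2, adjusted 0.36), and its rho was 0 with the AS605240 arrays. For GGH, MTHFD1, MTHFD2 and SHMT1 r lay between -0.217 and 0.406. ALL-SIL, where GGH was near the floor, had the middle IC50 of the 7. P12-ICHIKAWA and TALL-1, which were so alike, also had the 2 lowest IC50 values, so the 7 points are not fully independent.

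**Figure D4:**
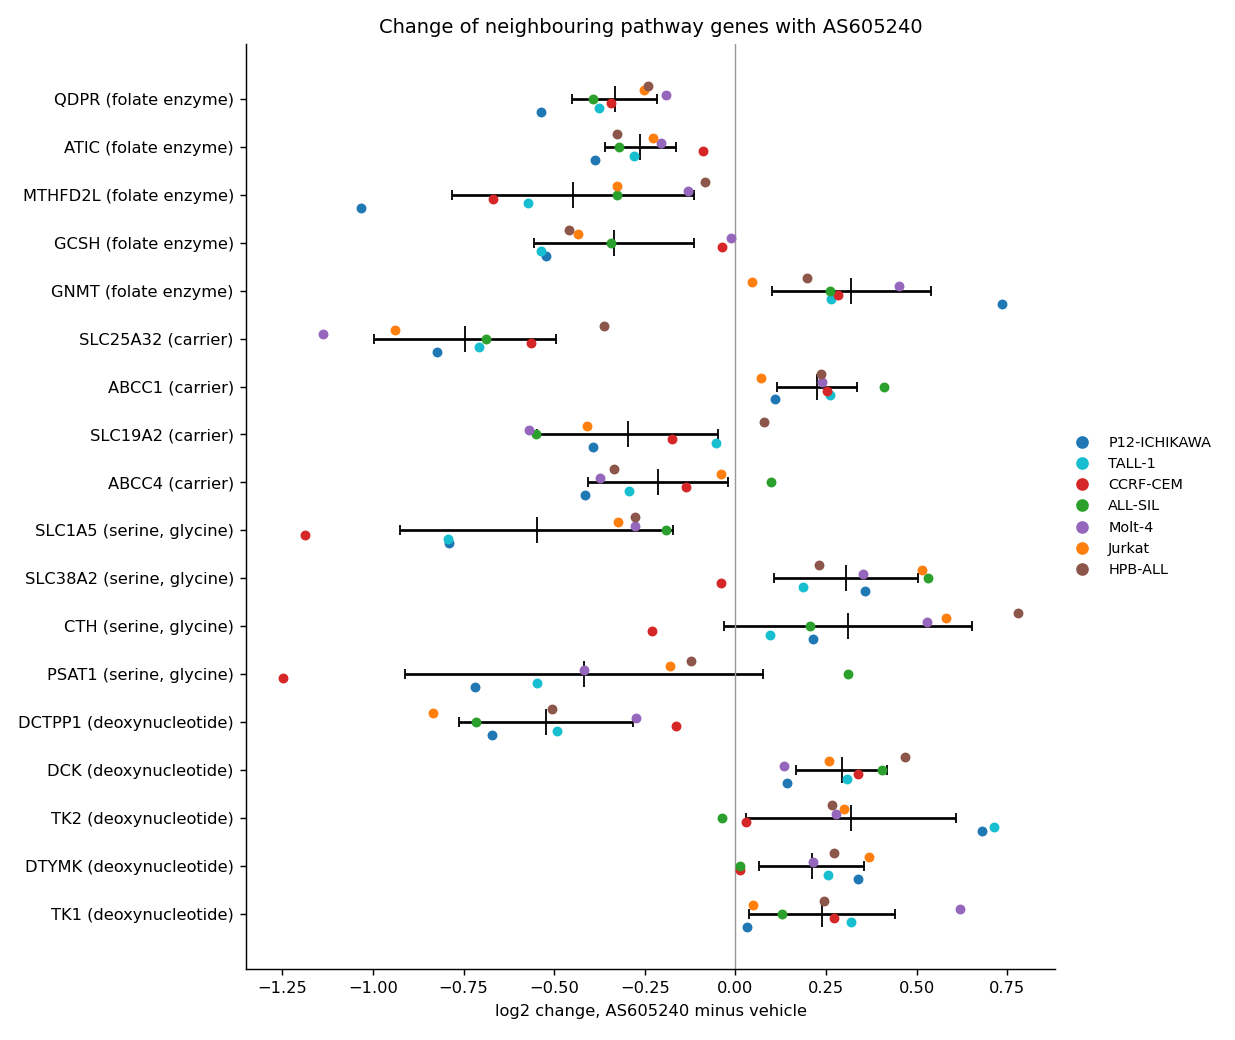
Change with AS605240 (log2, x axis) of the genes past adjusted p 0.05 in 4 lists of neighbouring pathways (y axis, list in brackets). Points are the 7 cell lines, ticks the mean and bars ± 1 SD. All 7 points of SLC25A32 lie left of -0.3, and the CCRF-CEM point is the lowest for SLC1A5 and PSAT1.

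Around these genes, the other folate enzymes gave 4 lower and 1 higher of the 17 measured of 21 listed, with a median change of -0.09, where 7.03% of all genes were lower and 11.8% higher with a median of 0.013. ATIC, which inserts a folate-borne carbon in the last steps of purine synthesis, changed by -0.26 (limma adjusted p = 0.0052), and GCSH, the carrier protein of the glycine cleavage system, by -0.34 (adjusted p = 0.00671). QDPR, a pteridine reductase, changed by -0.33 (adjusted p = 0.00139) and MTHFD2L, a second mitochondrial enzyme of the MTHFD2 type, by -0.45 (adjusted p = 0.00565). All 4 were lower in 7 of 7 lines. GNMT, which uses glycine to take up methyl groups, rose by 0.32 (adjusted p = 0.00864) from a mean signal of only 14.9. With all probe sets of a gene averaged, the calls of QDPR (-0.12, adjusted p = 0.275) and MTHFD2L (-0.09, adjusted p = 0.198) were lost. As with the brightest probe set of SLC19A1, the smallest changes of GCSH were those of Molt-4 (-0.01) and CCRF-CEM (-0.04).

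Of 15 folate and antifolate carriers, 3 were lower and 1 higher (7.03% and 11.8% of all genes), with a median change of -0.04. SLC25A32, which carries folate into mitochondria, had the lowest mean change in these 4 lists. Its vehicle signal lay between 202 (ALL-SIL) and 799 (Molt-4), and with AS605240 between 119 and 381. The change was -0.75 (SE 0.08, limma adjusted p = 5.36e-05), from -1.14 in Molt-4 to -0.36 in HPB-ALL and lower in 7 of 7 lines. ABCC1, an exporter of drugs and conjugates, rose by 0.23 in 7 of 7 lines (adjusted p = 0.0148). SLC19A2, a thiamine carrier related to SLC19A1, changed by -0.30 (adjusted p = 0.0199), and its call was lost without P12-ICHIKAWA (0.051), ALL-SIL (0.0636), Molt-4 (0.0641) or Jurkat (0.058). ABCC4, another exporter, changed by -0.21 (adjusted p = 0.0495), a call kept only without ALL-SIL. The ABCC4 call was lost without P12-ICHIKAWA (0.134), TALL-1 (0.117), CCRF-CEM (0.0694), Molt-4 (0.124), Jurkat (0.0505) or HPB-ALL (0.111). In ALL-SIL the ABCC4 signal was near the floor, 0.0017 with vehicle and 1.15 with AS605240, so its change there was not measurable. At an offset of 4 SLC19A2 (0.0608) and ABCC4 (0.255) both missed the threshold, as ABCC4 did with P12-ICHIKAWA and TALL-1 as 1 line (0.11) and over all probe sets (0.0537).

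In the list headed serine and glycine supply, 2 of 9 genes were lower and 2 higher (7.03% and 11.8% of all genes), with a median change of -0.13. The list also held CTH, an enzyme of cysteine synthesis that was among the higher genes. SLC1A5, a transporter of neutral amino acids, changed by -0.55 (limma adjusted p = 0.00276), lower in 7 of 7 lines and by the most in CCRF-CEM (-1.19). SLC38A2, another amino acid transporter, rose by 0.30 in 6 of 7 lines (adjusted p = 0.00849), CCRF-CEM being the exception. PSAT1 changed by -0.42 (adjusted p = 0.0446), but its signal was 0.305 in ALL-SIL and 4.48 in HPB-ALL with vehicle, against 1312 to 4591 in the other 5 lines. That call was lost without P12-ICHIKAWA (0.114), TALL-1 (0.101), CCRF-CEM (0.112), Molt-4 (0.0876) or Jurkat (0.0587). CTH, which makes cysteine, rose by 0.31 (adjusted p = 0.0444) from a mean signal of 39.3, and lost its call without P12-ICHIKAWA (0.0646), ALL-SIL (0.0663), Molt-4 (0.118), Jurkat (0.127) or HPB-ALL (0.124). Neither PSAT1 nor CTH passed at an offset of 4 (0.314 and 0.0687) or 64 (0.066 and 0.124), after quantile normalization (0.0642 and 0.067) or with P12-ICHIKAWA and TALL-1 as 1 line (0.103 and 0.0524). CTH also missed the threshold after median centring (0.0566) and with its probe sets averaged (0.2).

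In thymidylate and deoxynucleotide supply, 1 of 14 genes was lower and 4 were higher, with a median change of 0.10. Of all genes, too, more were higher (11.8%) than lower (7.03%). DCTPP1, which breaks down dCTP, changed by -0.52 (limma adjusted p = 4.95e-04). DCK, the kinase of deoxycytidine, rose by 0.29 in 7 of 7 lines (adjusted p = 0.00364). TK1, the cytosolic thymidine kinase by which cells salvage thymidine, rose by 0.24 (adjusted p = 0.0335) and DTYMK, which phosphorylates dTMP, by 0.21 (adjusted p = 0.0312), both in 7 of 7 lines. TK2, the mitochondrial thymidine kinase, rose by 0.32 (adjusted p = 0.0223) from a mean signal of 47.5, with 6 arrays over 50. The calls of DCTPP1 and DCK were kept without any line. That of TK1 was lost without TALL-1 (0.0854), CCRF-CEM (0.0705), Molt-4 (0.0911) or HPB-ALL (0.0628), and that of TK2 without P12-ICHIKAWA (0.068) or TALL-1 (0.0737). DTYMK lost its call without P12-ICHIKAWA (0.0838), TALL-1 (0.0773), Molt-4 (0.0616), Jurkat (0.0921) or HPB-ALL (0.067). At an offset of 4 TK1 (0.0871), TK2 (0.0771) and DTYMK (0.0789) missed the threshold, as DTYMK (0.08, adjusted p = 0.31) and TK2 (0.14, adjusted p = 0.0912) did with all probe sets averaged. After quantile normalization TK1 (0.0501) and TK2 (0.0548) missed it, after median centring TK1 (0.0501), and with P12-ICHIKAWA and TALL-1 as 1 line TK2 (0.0638) and DTYMK (0.0683).

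The genes whose levels over the 14 arrays were most like those of TYMS, among the 9186 whose signal exceeded 50 on 7 arrays or more, were MKNK1 (r = 0.945), UBR1 (0.943) and RALGAPA1 (0.924). For SLC19A1 they were BRI3BP (0.925), PA2G4 (0.888) and SMYD3 (0.885). For MTHFD2 they were ZFYVE16 (0.909), GARS1 (0.904) and CYB5R4 (0.895). These are the highest of many correlations over arrays that come in pairs from 7 lines.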

How the data were processed

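Total RNA of 7 T-ALL lines, each with 1 AS605240 and 1 vehicle array, had been hybridized to Affymetrix HG-U133 Plus 2.0 arrays. Per the paper's methods and the submitters' processing notes, the authors summarized probe sets with iterPLIER (Affymetrix Expression Console 1.3.1.187). The deposited values were linear intensity signals, with the array normalization not given in the sources used here, so 16 was added and log2 taken here. The smallest deposited signal was 3.08e-05, and precision is limited by 1 array per line and treatment.

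GEO's platform annotation gave 1 gene for 41091 of 54675 probe sets, several for 1801 and none for 11721, with 62 controls left out. Symbols were updated through RefSeq for 41037. Each gene was read from its brightest probe set naming it alone (19775 genes). A second table held all 42892 probe sets with a symbol. In R 4.3.3, limma 3.58.1 (lmFit, eBayes) was fitted on all 14 arrays with treatment and cell line, which pairs the arrays of 1 line, as the study's paired design does. Calls used Benjamini-Hochberg adjusted p under 0.05. The F test of the line terms came from the same fit. Levels were related to log2 methotrexate IC50 (not printed) over all 5040 pairings, and differences between genes were tested over 128 sign patterns. The fit was tested on simulated data.

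The 9 genes and all lists were chosen with earlier results of these data known. Named genes were the 9, every list gene past the threshold where 5 or fewer passed or among the 3 smallest p of its list, and the 3 genes most like TYMS, SLC19A1 and MTHFD2. PHGDH, PSPH, RB1 and PRNP were added after their values were seen. Alternatives were offsets of 4 and 64, quantile normalization, median centring, the mean of all probe sets of a gene, a filter on dim genes, every probe set, no cell line block, each line left out, and P12-ICHIKAWA and TALL-1 as 1 line. For the methotrexate relation the level with AS605240, the mean of both arrays, and the lines without the 2 farthest from the median IC50 were also used.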

Additional observations from a re-analysis of the deposited data

Results flagged for a closer look

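Each of the 9 genes was examined for a single line far from the others, in its vehicle level, its AS605240 level and its change, which made 27 groups of 7 values. A line was singled out when its gap to the nearest other line was a large share of the whole range (Dixon's criterion), which chance alone meets in about 1 of 20 groups, and 4 of the 27 met it.

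GGH in ALL-SIL met it with both treatments. The level was 4.25 with vehicle, with the nearest other line at 8.32 and a gap of 0.804 of the range, and 4.2 with AS605240, with the nearest again at 8.32 and a gap of 0.787. The change of MTHFD2 in CCRF-CEM was -0.709, with the nearest line at -0.153 and a gap of 0.616. The change of MTHFD1L in P12-ICHIKAWA was -0.61, with the nearest line at -0.0417 and a gap of 0.727, on signals below 15 throughout.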

How the results depend on the processing

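Over all results and alternatives that left no line out, 326 results kept direction and side of the threshold or, for counts, stayed within 1.5 times, 54 lost the call, 4 counts moved by more and 9 values changed sign. With a line left out, by the same measure 273 were kept, 37 lost the call and 12 changed sign, with no count beyond 1.5 times. The count of genes lower among the 9 was 3, and it was 0 at an offset of 4, 1 with the mean of all probe sets, 0 without the cell line block, 2 after quantile normalization and with P12-ICHIKAWA and TALL-1 as 1 line, and 2 to 3 with each line left out, while the count higher was 0 throughout. The count of genes that differed between lines was 8, and it was 5 with the mean of all probe sets, 6 at an offset of 4, 7 at an offset of 64 and with the filter on dim genes, and 6 to 9 with each line left out. The IC50 relations and the differences between pairs of genes gave 0 calls with each alternative run for them, which left out the filter on dim genes, every probe set and the fit without the block. Signs turned only for values that were not called. At an offset of 64, SHMT2 minus SHMT1 was -0.030. With the mean of all probe sets, rho of MTHFD1 was -0.393 and MTHFD2 minus MTHFD1 was -0.018. With AS605240 levels, rho was 0.179 for MTHFD1L and 0 for SHMT2. Without the 2 lines farthest from the median IC50, rho was 0.1 for GGH, -0.2 for MTHFD2 and 0.1 for SHMT1. With P12-ICHIKAWA and TALL-1 as 1 line, the MTHFD1L change was 0.025. With each line left out, the MTHFD1L change ran from -0.054 to 0.076, the SHMT2 change from -0.13 to 0.018, rho of GGH from -0.257 to 0.257, of MTHFD2 from -0.143 to 0.371 and of SHMT1 from -0.486 to 0.0286, MTHFD2 minus MTHFD1 from -0.0023 to 0.19, and SHMT2 minus SHMT1 from -0.071 to 0.10. The cause was not tested in any of these cases.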

Other observations

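DMGDH, a mitochondrial enzyme of glycine synthesis that hands a carbon to folate, went from a signal of 7.86 to 552 with AS605240 in HPB-ALL, a log2 change of 4.57. In the other 6 lines its signals lay between 3.22 and 39.9 and its changes between -0.35 and 0.33, and over all lines it did not pass (limma adjusted p = 0.439). HPB-ALL had 1 array per treatment, and DMGDH was named after its value was seen.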
